A study of Mus musculus with 6 samples.

Results

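The BCL2 family apoptosis regulators are the proteins that set whether a stressed cell opens its outer mitochondrial membrane and dies. The 10 genes taken here are the anti-apoptotic members Bcl2, Bcl2l1 (BCL-XL) and Mcl1, the effectors Bax and Bak1, and the BH3-only genes Bcl2l11 (BIM), Bbc3 (PUMA), Pmaip1 (NOXA), Bid and Bad. They were found by symbol among the array probe sets that carry a single gene symbol, and 9 of the 10 were measured, out of 19938 genes in all. Bax had none and is not analysed here. Each of the 9 measured members had 1 probe set. RNA came from mouse embryonic fibroblasts (MEFs), cells grown out of embryos, and was hybridised to Affymetrix Gene ST arrays, which read a transcript with several short probes along the gene. The H2AX knockout (KO) group was 3 arrays of untreated MEFs from H2AX mutant mice, and the wild-type (WT) group was 3 arrays of untreated MEFs from wild-type mice, all cultured in the same serum-supplemented medium. The study calls the numbered samples of each genotype independent replicates. The sources used here do not state the mouse strain, the age of the embryos, the passage, or whether independent means separate embryos or separate cultures of the same cells, so that a p-value measures the spread between these samples.

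Anti-apoptotic members hold the effectors BAX and BAK in check at the mitochondrion and the endoplasmic reticulum. BH3-only proteins, switched on by DNA damage, loss of growth factors or protein-folding stress, bind the anti-apoptotic members, and some of them engage the effectors directly. Active BAX and BAK form pores that release cytochrome c, which assembles with APAF1 into the apoptosome and starts the caspases. H2AX is the histone variant that is phosphorylated around DNA breaks.

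The transcript of the targeted gene was lower in the knockout cells, although a signal remained. H2ax read 7.69, 7.77 and 7.67 on the 3 KO arrays and 8.96, 9.18 and 9.00 on the 3 WT arrays (log2 values), a log2 fold change of -1.34 (limma adjusted p = 5.8e-07), and the position of its probes relative to the deleted part is not given. The cells of the 2 genotypes also differed in genes outside the BCL2 family. All 10 fibroblast markers were measured, of which 5 were higher and 3 lower in KO cells (80% called, against 33.4% of all genes). Their mean level per array was 10.72 to 10.75 in KO cells and 10.19 to 10.30 in WT cells. Without Thy1 it was 10.73 to 10.77 in KO cells and 10.60 to 10.70 in WT cells. The markers moved both ways, with log2 fold changes of 4.03 for Thy1 (limma adjusted p = 2.6e-10) and 1.70 for Pdgfrb (limma adjusted p = 3.3e-07), and of -2.15 for Dcn (limma adjusted p = 2.5e-07) and -0.29 for Fn1 (limma adjusted p = 0.0045). Of 4 measured genes of the Y-linked and Xist list, 3 were lower in KO cells (75% called, against 33.4% of all genes). These were Eif2s3y, Uty and Kdm5d, with log2 fold changes of -4.04, -3.73 and -2.88. Their means were 4.05, 4.35 and 4.92 in KO cells and 8.09, 8.08 and 7.80 in WT cells. Xist was at 0.03, with means of 4.56 in KO cells and 4.53 in WT cells. The lowest value of any probe set on the arrays was 2.94. Leukocyte markers lay at a mean of 5.34 to 5.40 in KO cells and 5.30 to 5.37 in WT cells. Of these 9 markers, 1 was higher and 1 lower (22.2% called, against 33.4% of all genes). The 7 epithelial, 6 endothelial and 6 muscle and neural markers had means between 4.80 and 5.72 on each KO array and between 4.94 and 5.61 on each WT array. Of these, the endothelial markers Cdh5 and Emcn were lower, with log2 fold changes of -0.47 (limma adjusted p = 0.0087) and -0.41 (limma adjusted p = 0.00076), and the neural marker Tubb3 was higher, at 0.83 (limma adjusted p = 6.9e-05). The part of these markers in the results for the BCL2 family was not tested. H2AX genotype and these other differences between the cells cannot be told apart with the design.

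The family split by direction in the knockout cells. Bcl2, Bcl2l1 and Bcl2l11 were lower, Mcl1, Bak1 and Bbc3 were higher, and Pmaip1, Bid and Bad did not pass the test. At an adjusted p under 0.05 in limma over all genes, 6 of 9 members (66.7%) were called, against 33.4% of all genes. By direction, 3 of 9 were called higher, against 18.4% of all genes, and 3 of 9 lower, against 15.0%. Those same 6 members were the ones whose KO and WT values did not overlap, a state that 44.8% of all genes had. With a fold-change over 2 added, Bcl2 was the only member left, where 5.30% of all genes passed, 2.12% as higher and 3.18% as lower. With a fold-change over 1.5, Bcl2, Bcl2l1 and Bcl2l11 passed, 3 of 9 members, where 11.9% of all genes did. The rises were smaller than the falls, with log2 fold changes of 0.27 to 0.50 among the 3 higher members and of -0.72 to -1.17 among the 3 lower ones, and the median over the 9 members was 0.03, beside 0.02 over all genes.

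**Figure D1:**
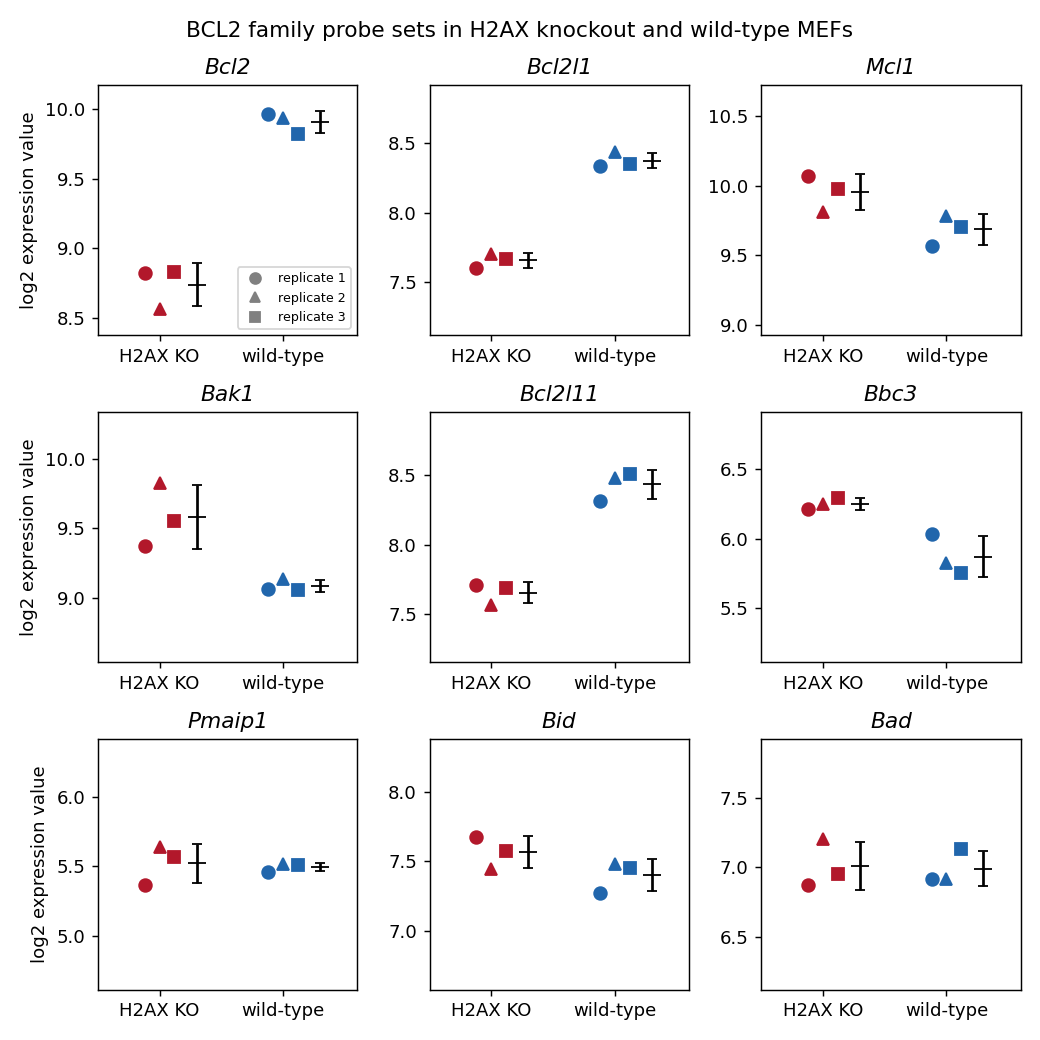
Log2 expression value (vertical axis) of the 9 measured BCL2 family genes on each array, with KO arrays to the left of WT arrays, in a panel for each gene, points for single arrays and bars for the mean and SD. The points of KO and WT arrays are apart for Bcl2, Bcl2l1, Bcl2l11, Mcl1, Bak1 and Bbc3, and overlap for Pmaip1, Bid and Bad.

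Among the anti-apoptotic members, Bcl2 and Bcl2l1 fell and Mcl1 was slightly higher. Bcl2, the founding member, whose product sits on the mitochondrial and endoplasmic reticulum membranes and binds BIM, PUMA and BAX, read 8.82, 8.56 and 8.83 on the KO arrays and 9.97, 9.94 and 9.82 on the WT arrays. Every KO array was below every WT array, with a gap of 0.99 between the highest KO and the lowest WT value. Bcl2 averaged 8.74 ± 0.15 in KO cells and 9.91 ± 0.08 in WT cells (SD, n = 3 each), a log2 fold change of -1.17 (standard error, SE, 0.09, 95% interval -1.36 to -0.98, limma adjusted p = 4.2e-06), or 2.25-fold lower. That change was larger in size than those of 95.8% of all genes. In RNA from a whole culture, fewer cells that carry a transcript and less of it per cell cannot be told apart, here and for the other members.

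Bcl2l1 encodes BCL-XL, which restrains BAX and BAK, and also BCL-XS, a shorter pro-apoptotic form that a gene-level probe set does not separate. It read 7.60, 7.71 and 7.67 on the KO arrays and 8.34, 8.44 and 8.35 on the WT arrays. The groups were 0.63 apart, and the spread within each group was small beside that gap. Bcl2l1 averaged 7.66 ± 0.05 in KO cells and 8.37 ± 0.05 in WT cells (SD, n = 3 each), with a log2 fold change of -0.72 (SE 0.06, 95% interval -0.86 to -0.57, limma adjusted p = 1.6e-05), or 1.64-fold lower.

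Mcl1, whose short-lived product binds BAK, BIM and NOXA and is renewed constantly, moved the other way. It read 10.07, 9.81 and 9.98 on the KO arrays and 9.57, 9.78 and 9.70 on the WT arrays. KO replicate 2 lay 0.03 above WT replicate 2, so that the groups were apart by a margin smaller than the spread within either of them. Mcl1 averaged 9.95 ± 0.13 in KO cells and 9.68 ± 0.11 in WT cells (SD, n = 3 each), with a log2 fold change of 0.27 (SE 0.09, 95% interval 0.08 to 0.46, limma adjusted p = 0.037), or 1.20-fold higher. The call was lost without KO replicate 1 (adjusted p = 0.116), KO replicate 3 (adjusted p = 0.115), WT replicate 1 (adjusted p = 0.122) or WT replicate 3 (adjusted p = 0.0782, limma in each), as it was with the methods' test, which uses each gene's own variance alone (adjusted p = 0.142).

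The change of one member relative to another is free of any constant by which the arrays were scaled to each other. The Bcl2 minus Mcl1 difference was 1.44 lower in KO cells than in WT cells on the log2 scale, at -1.24, -1.25 and -1.14 on the KO arrays and 0.40, 0.16 and 0.12 on the WT arrays. The 2 groups of arrays did not overlap. The same held for Bcl2l1 minus Mcl1, which was lower by 0.98, and for Bcl2 minus Bcl2l1, which was lower by 0.45. Where a member that fell is set against a member that rose, both without overlap, this separation follows from the single genes. It adds no further support. These differences describe how unequally the probe sets changed, and say nothing of which transcript is more abundant.

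Of the effectors, only Bak1 was measured. BAK, its product, is anchored in the outer mitochondrial membrane, where MCL-1 and BCL-XL hold it inactive. Bak1 read 9.37, 9.83 and 9.55 on the KO arrays and 9.06, 9.13 and 9.06 on the WT arrays. All KO arrays were above all WT arrays, by at least 0.24, and the KO arrays were spread more widely, with replicate 2 highest. Bak1 averaged 9.58 ± 0.23 in KO cells and 9.08 ± 0.04 in WT cells (SD, n = 3 each), with a log2 fold change of 0.50 (SE 0.11, 95% interval 0.26 to 0.74, limma adjusted p = 0.0046), or 1.41-fold higher. Without KO replicate 2 the change was 0.38, and without KO replicate 1 it was 0.61, and the call was lost with the methods' test (adjusted p = 0.0751). Relative to Bcl2, Bak1 was higher by 1.67 in KO cells than in WT cells, and relative to Bcl2l1 by 1.22. Bak1 minus Mcl1 differed by 0.23 with overlapping arrays.

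The 5 BH3-only genes did not move together: Bcl2l11 fell, Bbc3 rose and 3 did not pass. Bcl2l11 encodes BIM, which binds all of the anti-apoptotic members and can activate BAX and BAK, and which rises in many cells when growth factors are withdrawn. It read 7.71, 7.57 and 7.69 on the KO arrays and 8.32, 8.48 and 8.51 on the WT arrays. The groups were 0.61 apart. Bcl2l11 averaged 7.66 ± 0.08 in KO cells and 8.44 ± 0.10 in WT cells (SD, n = 3 each), with a log2 fold change of -0.78 (SE 0.07, 95% interval -0.95 to -0.61, limma adjusted p = 2.8e-05), or 1.72-fold lower. Its fall was smaller than that of Bcl2, so that Bcl2l11 minus Bcl2 was 0.39 higher in KO cells, without overlap of the arrays. Bcl2l11 minus Mcl1 was 1.05 lower.

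Bbc3 encodes PUMA, a target of p53 that binds every anti-apoptotic member. It read 6.21, 6.25 and 6.30 on the KO arrays and 6.03, 5.83 and 5.75 on the WT arrays. The groups were 0.18 apart, with WT replicate 1 nearest to the KO arrays. Bbc3 averaged 6.25 ± 0.04 in KO cells and 5.87 ± 0.15 in WT cells (SD, n = 3 each), with a log2 fold change of 0.38 (SE 0.08, 95% interval 0.20 to 0.56, limma adjusted p = 0.0049), or 1.30-fold higher, and the call was lost with the methods' test (adjusted p = 0.0526). The signal of its probe set was low, with a mean over the arrays above that of 45.5% of genes. Bbc3 minus Bcl2l11 was 1.16 higher in KO cells than in WT cells, and Bbc3 minus Bcl2 was 1.55 higher.

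Pmaip1, Bid and Bad had values that overlapped between the genotypes. Pmaip1 encodes NOXA, a BH3-only protein that targets MCL-1 and is also a p53 target, and read 5.36, 5.63 and 5.56 on the KO arrays and 5.46, 5.51 and 5.51 on the WT arrays. Its mean signal was above that of 36.4% of genes, and the log2 fold change was 0.03 (95% interval -0.15 to 0.20, limma adjusted p = 0.84). These values lie among the mean levels of the epithelial, endothelial, muscle and neural markers, 4.80 to 5.72 on KO arrays and 4.94 to 5.61 on WT arrays. Whether the probe set read above background was not tested. Bid, whose product is cut by caspase-8 and so links death receptors to mitochondria, read 7.68, 7.44 and 7.58 on the KO arrays and 7.27, 7.48 and 7.45 on the WT arrays, a log2 fold change of 0.16 (95% interval -0.02 to 0.35, limma adjusted p = 0.18). KO replicates 1 and 3 were above all WT arrays for Bid, and KO replicate 2 was below WT replicates 2 and 3. Bad, whose product is kept from BCL-XL by phosphorylation under growth factor signalling, read 6.87, 7.20 and 6.96 on the KO arrays and 6.92, 6.92 and 7.13 on the WT arrays, a log2 fold change of 0.02 (95% interval -0.20 to 0.24, limma adjusted p = 0.90). For Bad, the arrays of both genotypes were mixed, with KO replicate 2 highest and KO replicate 1 lowest. The intervals for these 3 genes leave room for changes of up to 0.35 in log2 signal, and for Pmaip1 they do not bound the transcript if its signal is background. Of the p53 targets among the members, Bbc3 thus passed the test and Pmaip1, whose signal was lower still, did not. Trp53 itself is not analysed here, for the same reason as Bax.

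**Figure D2:**
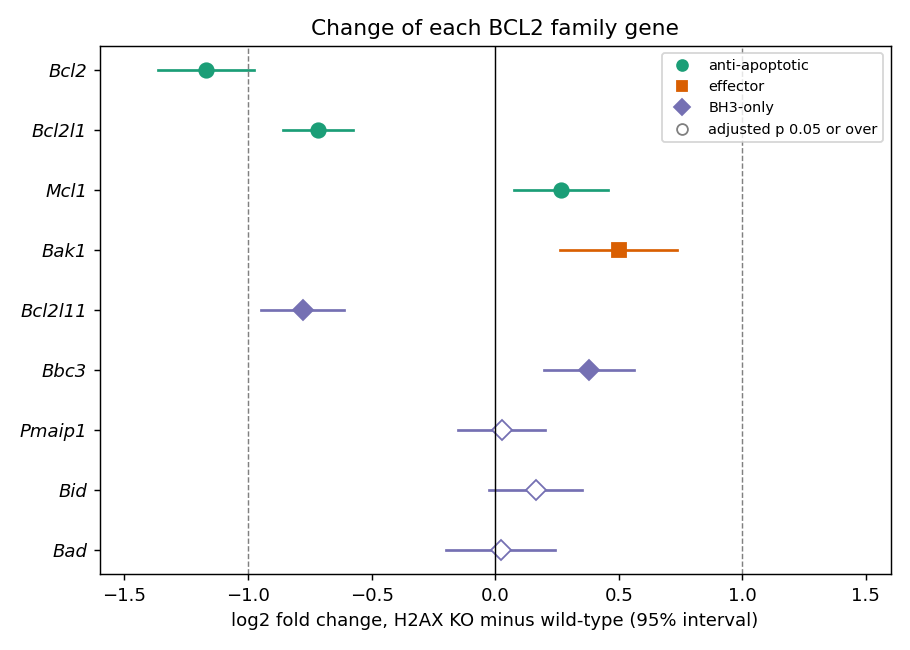
Log2 fold change, H2AX KO minus WT (horizontal axis), of each measured member by role, with points for the estimate and bars for its 95% interval from limma. The intervals of Bcl2, Bcl2l1 and Bcl2l11 lie below 0, those of Mcl1, Bak1 and Bbc3 above 0, and those of Pmaip1, Bid and Bad span 0.

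The members differed in how much they rested on single arrays. Over the 6 fits that each left out 1 array, the log2 fold change stayed between -1.22 and -1.08 for Bcl2, between -0.74 and -0.68 for Bcl2l1, between -0.84 and -0.73 for Bcl2l11, and between 0.32 and 0.46 for Bbc3. For Bid it ranged from 0.10 (without WT replicate 1) to 0.23 (without KO replicate 2), and was 0.11 without KO replicate 1. Among the KO arrays, replicate 2 was the farthest from its group mean for 6 of the 9 members, as it was for 49.4% of all genes, and among the WT arrays, replicate 1 was the farthest for 5 of 9, as it was for 44.6% of all genes. Without KO replicate 2, the change of Pmaip1 was -0.03 and that of Bad -0.08, on the other side of 0 from the value on all arrays.

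**Figure D3:**
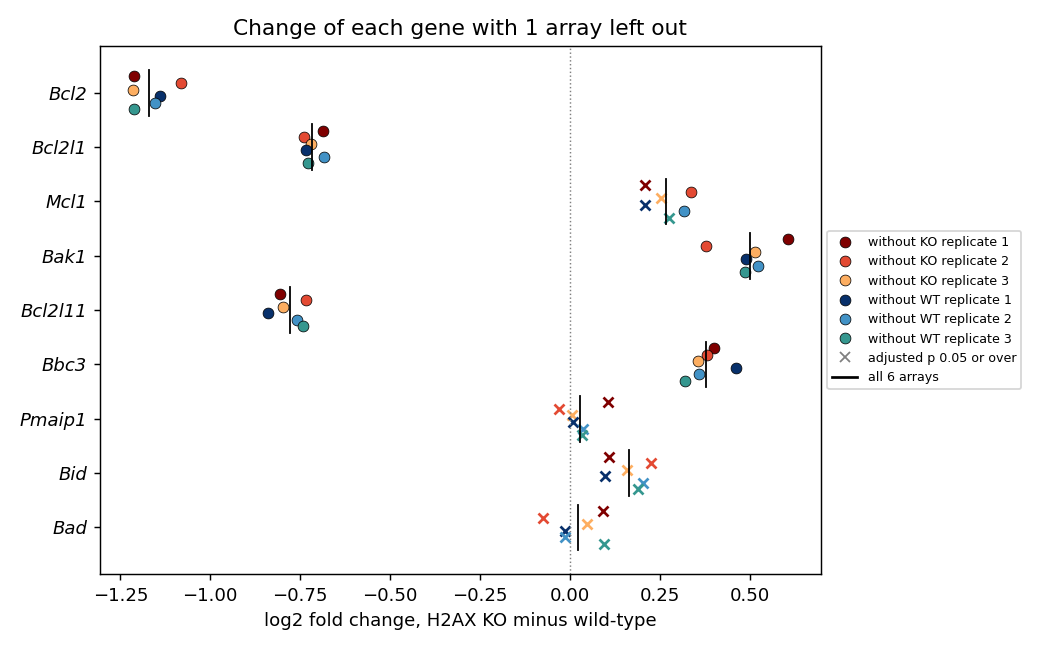
Log2 fold change, H2AX KO minus WT (horizontal axis), of each measured member on all 6 arrays (black lines) and in the 6 fits that each left out 1 array (points coloured by that array, crosses at an adjusted p of 0.05 or over in limma). Bcl2, Bcl2l1 and Bcl2l11 stay below 0, Mcl1, Bak1 and Bbc3 stay above 0, and Pmaip1 and Bad cross 0.

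Promoter sequence was looked at for 8 of the 9 measured members, in 14 windows of the 250 bases before each annotated transcript start (RefSeq, GRCm38.p6). Pmaip1 was not in the table. The letters searched on both strands were GGGCGG (GC box), GTAAACA (forkhead), CCAAT (the CCAAT box), TGACGT (core of the cyclic AMP response element), CACGTG (E-box) and TATAAA, each match being counted also where it overlapped another of the same kind, and matches of different motifs did not overlap in these windows.

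The following 4 windows, 5′ to 3′ along the gene with matches in capitals, are of the 3 members that fell and of Bbc3, the BH3-only gene that rose.
Bcl2 (chr1:106714291-106714540, minus strand): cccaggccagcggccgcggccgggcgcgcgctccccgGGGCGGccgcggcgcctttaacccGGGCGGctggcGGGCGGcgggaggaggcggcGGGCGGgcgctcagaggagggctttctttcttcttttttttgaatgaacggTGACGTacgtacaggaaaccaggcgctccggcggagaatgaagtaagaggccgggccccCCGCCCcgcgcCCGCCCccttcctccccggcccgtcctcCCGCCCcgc
Bcl2l1, the most upstream of 3 windows (chr2:152831729-152831978, minus strand): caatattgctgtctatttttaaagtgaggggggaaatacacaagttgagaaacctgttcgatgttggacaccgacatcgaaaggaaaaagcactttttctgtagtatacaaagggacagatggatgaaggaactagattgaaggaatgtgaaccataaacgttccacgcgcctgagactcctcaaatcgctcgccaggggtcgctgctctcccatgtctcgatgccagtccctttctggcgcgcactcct
Bcl2l11, the upstream of 2 windows (chr2:128125788-128126037, plus strand): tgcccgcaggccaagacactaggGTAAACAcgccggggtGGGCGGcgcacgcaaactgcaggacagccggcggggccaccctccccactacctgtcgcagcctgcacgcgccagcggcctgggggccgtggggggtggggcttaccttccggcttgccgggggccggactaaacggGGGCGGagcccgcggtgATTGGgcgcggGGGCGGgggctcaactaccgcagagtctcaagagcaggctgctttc
Bbc3, the middle of 3 windows (chr7:16310011-16310260, plus strand): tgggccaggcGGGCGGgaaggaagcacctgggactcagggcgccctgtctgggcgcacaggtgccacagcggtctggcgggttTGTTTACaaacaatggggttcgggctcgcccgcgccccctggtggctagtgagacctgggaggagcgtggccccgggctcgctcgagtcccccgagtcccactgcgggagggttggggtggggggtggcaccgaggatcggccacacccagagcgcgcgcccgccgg

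The window of Bcl2 held 7 GC boxes and 1 TGACGT, whereas none of the 6 motifs was found in any of the 3 windows of Bcl2l1. The window of Bcl2l11 printed here held 3 GC boxes, 1 GTAAACA and 1 CCAAT, and the other held 2 GC boxes, 2 CCAAT and no forkhead letters. The window of Bbc3 printed here held 1 GC box and 1 GTAAACA, and the other windows of Bbc3 held 5 and 7 GC boxes and no forkhead letters. The windows of Bcl2l11 and Bbc3 were chosen for print because they hold those letters. The forkhead letters were thus in 2 of the 14 member windows, against 3.17% of the 32851 windows in the table, the GC box in 9 of 14 against 32.7%, CCAAT in 4 of 14 against 33.8%, TGACGT in 1 of 14 against 6.47%, CACGTG in 1 of 14, a further Bbc3 window, against 6.02%, and TATAAA in 0 of 14 against 12.4%. Windows of one gene are not independent, and 2 of the 3 windows of Bbc3 overlap in part. Bcl2l11 and Bbc3, which each have a window with the forkhead letters, moved in opposite directions, and such letters are a description and not a bound site.

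Foxo3, a forkhead factor known to act on Bcl2l11 and Bbc3, was higher in KO cells, with means of 8.66 in KO cells and 7.86 in WT cells and a log2 fold change of 0.80 (limma adjusted p = 3.4e-05). Of the 12 transcription factors listed as acting on the members, 10 were measured, of which 3 were higher, 3 lower and 4 did not pass (60% called, against 33.4% of all genes), with a median log2 fold change of 0.05. The counts of this factor list were not recomputed under the alternative settings. Rela, an NF-κB subunit known to act on Bcl2l1 and Birc3 among others, was higher by 0.52 (limma adjusted p = 0.00042), while Bcl2l1 was at -0.72. Ddit3 (CHOP), which in protein-folding stress lowers Bcl2 and raises Bcl2l11, was lower, with a log2 fold change of -1.10 (limma adjusted p = 2.6e-06), as was E2f1, a factor of cell cycle entry, at -0.51 (limma adjusted p = 0.00011).

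Among the other BCL2 family genes, 13 of 16 were measured, of which 2 were higher, 1 was lower and 10 did not pass (23.1% called, against 33.4% of all genes), with a median log2 fold change of 0.02. Bcl2l13, a mitochondrial protein with roles in mitophagy, rose by 0.45 (limma adjusted p = 0.0011) and Bnip3l (NIX), a mitophagy receptor, by 0.30 (limma adjusted p = 0.0043). Bnip3, a related receptor induced by low oxygen, had a log2 fold change of -0.48 (limma adjusted p = 0.015), and no gene of this list was called lower without WT replicate 2 (1 at an unadjusted p under 0.05, limma), against 2 without WT replicate 1.

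Downstream of the mitochondrion, 11 of 13 genes of the apoptosome, the caspases and the proteins released from mitochondria were measured, of which 2 were higher, 3 lower and 6 did not pass (45.5% called, against 33.4% of all genes, median 0.08). Casp6, an executioner caspase, had the largest fall of that list, with means of 7.65 in KO cells and 9.12 in WT cells and a log2 fold change of -1.47 (SE 0.10, limma adjusted p = 2.2e-06). Apaf1, the scaffold of the apoptosome, had a log2 fold change of -0.44 (limma adjusted p = 0.00087) and Cycs, cytochrome c, of -0.38 (limma adjusted p = 0.00094), while Casp9, the caspase the apoptosome activates, was at 0.03 (limma adjusted p = 0.80). Diablo (0.34, adjusted p = 0.047) and Htra2 (0.22, adjusted p = 0.024, limma), which code for antagonists of the inhibitors of apoptosis, were the 2 higher genes. With 1 array left out, the change stayed at 0.24 to 0.45 for Diablo and 0.18 to 0.24 for Htra2, but the calls were not kept in every fit. The count of higher genes over the whole list was 1 without KO replicate 1 and 4 without KO replicate 2. It was 0 without KO replicate 3, WT replicate 1 or WT replicate 2 (2, 1 and 4 genes at an unadjusted p under 0.05, limma), and 0 with the replicate number as a block (3 at an unadjusted p under 0.05).

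The inhibitors of apoptosis, which bind caspases or their adaptors, held the largest rises of the pathway lists. All 4 genes of this list were measured, 3 were higher, where 18.4% of all genes were, and none lower (also none at an unadjusted p under 0.05, limma), where 15.0% of all genes were, with a median log2 fold change of 0.85. Birc5 (survivin), of the same gene family, was listed with the proliferation markers and is not in these counts. It was at 0.04 (limma adjusted p = 0.82). Birc2 (cIAP1) averaged 8.40 in KO cells and 6.87 in WT cells, a log2 fold change of 1.54 (SE 0.07, limma adjusted p = 1.7e-07), and Birc3 (cIAP2) averaged 7.91 in KO cells and 6.59 in WT cells, a log2 fold change of 1.32 (SE 0.10, limma adjusted p = 6.5e-06). These are the ubiquitin ligases of the tumour necrosis factor receptor complex. Birc6 had a log2 fold change of 0.38 (limma adjusted p = 0.00062), and Xiap, the direct caspase inhibitor, of -0.12 (limma adjusted p = 0.48).

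In the death receptor arm, which joins the mitochondrial path through Bid, 9 of 10 genes were measured, with 4 lower and 5 that did not pass (44.4% called, against 33.4% of all genes, median -0.28). The 4 were Tnfrsf1a, the tumour necrosis factor receptor, at a log2 fold change of -1.14 (limma adjusted p = 4.6e-06), Cflar (FLIP), the blocker of caspase-8, at -1.12 (limma adjusted p = 3.3e-05), Casp8, the initiator caspase that cuts BID, at -0.96 (limma adjusted p = 7.5e-05) and Tnfrsf21 at -0.38 (limma adjusted p = 0.014). None was called higher (2 at an unadjusted p under 0.05, limma), and the number was 1 with quantile normalization, 2 with median centring and 1 without KO replicate 1.

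The membrane and binding partners of the family, 11 of 12 measured, had 2 higher, 4 lower and 5 that did not pass (54.5% called, against 33.4% of all genes, median -0.09). Dynll2, the light chain that holds the BH3-only protein BMF, was higher by 0.38 (limma adjusted p = 0.0037), and Vdac1, a channel of the outer membrane, by 0.31 (limma adjusted p = 0.0067). Tmbim6 (Bax inhibitor 1) had a log2 fold change of -0.42 (limma adjusted p = 0.00040), and Ywhaz, a 14-3-3 protein of the kind that holds phosphorylated BAD, of -0.31 (limma adjusted p = 0.0046). The count of 4 lower genes was 2 without KO replicate 3 or without WT replicate 2, and 3 without any other single array. It was also 3 with the replicate number as a block, with quantile normalization and with median centring. Genes for the turnover of BCL2 proteins were all 6 measured, with 4 higher, 1 lower and 1 that did not pass (83.3% called, against 33.4% of all genes, median 0.23). Marchf5, a mitochondrial ubiquitin ligase that acts on MCL-1 complexes, was higher by 0.64 (limma adjusted p = 0.00081) and Fbxo10, a ligase for BCL-2, by 0.34 (limma adjusted p = 0.0051), whereas Usp9x, which removes ubiquitin from MCL-1, had a log2 fold change of -0.21 (limma adjusted p = 0.024). Of these, the count of 4 higher genes was 2 without KO replicate 3, WT replicate 2 or WT replicate 3, and that of 1 lower gene was 0 without the same arrays, with the replicate number as a block and with median centring (1 at an unadjusted p under 0.05 in each, limma).

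**Figure D4:**
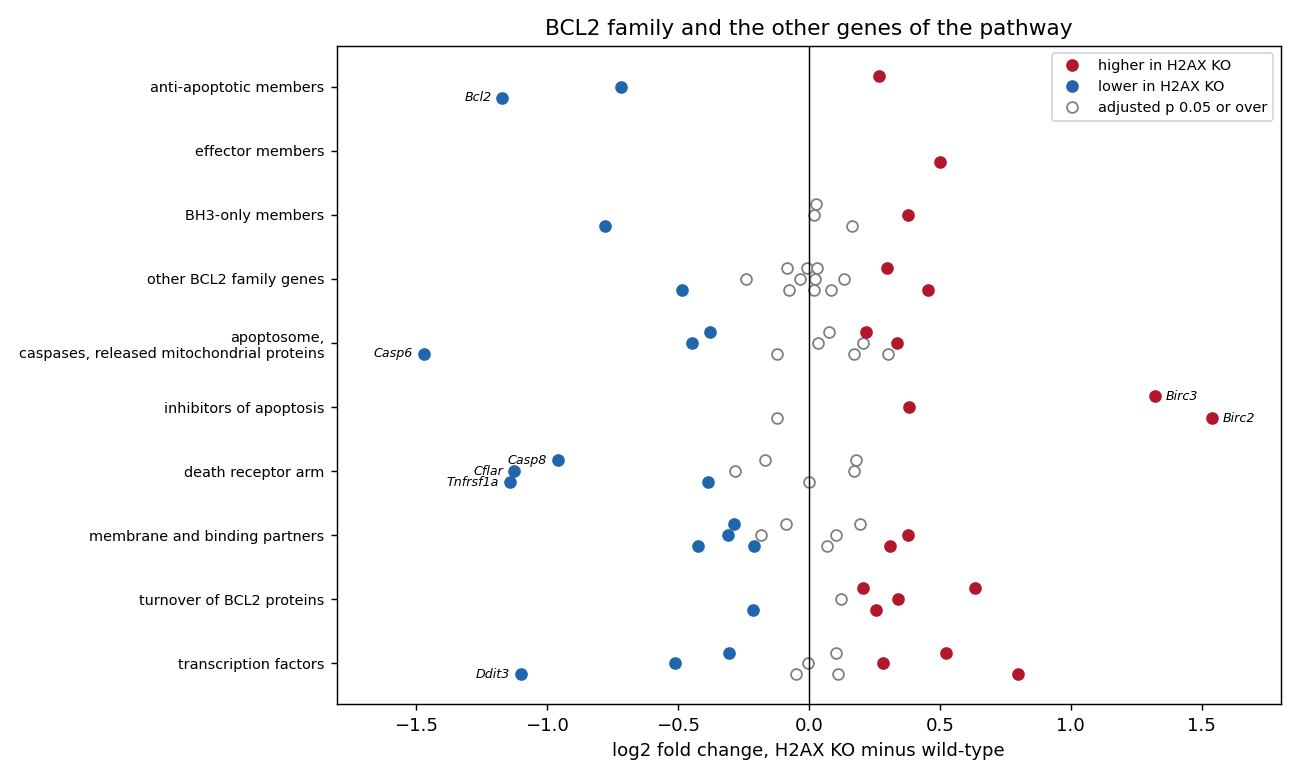
Log2 fold change, H2AX KO minus WT (horizontal axis), of each measured gene of the members and of the 7 other lists of the pathway (rows), red where higher and blue where lower at an adjusted p under 0.05 in limma, open where not. Birc2 and Birc3 lie farthest to the right, at 1.54 and 1.32, and Casp6 farthest to the left, at -1.47, with Bcl2 at -1.17.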

How the data were processed

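Total RNA of 6 MEF samples (3 H2AX KO, 3 WT by the labels) was measured on Affymetrix arrays. According to the methods and the submitters' processing notes, the authors processed the scans with Affymetrix Expression Console and normalized them in Partek (version 6.6). What was deposited is a log2 value for each of 35556 probe sets on each array (array medians 6.06 to 6.12). Background correction and summarization are not given in any source used here, and a difference in total RNA per cell is lost in such scaling.

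Probe sets matched the Mouse Gene 1.0 ST annotation, whereas the methods speak of the 2.0 array. It lists 23410 of them, of which 21789 carried 1 symbol and 1621 several, and only the first were used. Symbols were updated through a RefSeq table (GRCm38.p6), and for genes with several probe sets the one of highest mean signal was kept, giving 19938 genes. KO was compared with WT in limma (version 3.58.1, R version 4.3.3; lmFit, eBayes, no covariates, Benjamini-Hochberg over all genes), with calls at an adjusted p under 0.05. At most 0.0956% of probe sets were identical between 2 arrays of a genotype.

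The members, lists and tests were chosen with earlier results of these data known, so that no count over a list was tested. Named were all members, H2ax, and in each list of the pathway the 2 called genes that rose most and the 2 that fell most, with Trp53, Apaf1 and Casp9 whatever their values. Cycs, Casp8, Tnfrsf21, Birc6, Xiap, Birc5, Mki67, Top2a, Kdm5d and Xist, and the marker mean without Thy1, were added after their values were seen. Tried as alternatives were a block for the replicate number, each array left out, the methods' one-way ANOVA without moderation, a variance prior with trend, quantile normalization, median centring, a filter on the lower 50% of genes, averaging a gene's probe sets, each probe set tested singly, and fold-change thresholds of 1.5 and 2. The fit was tested on simulated data. The number of arrays, 3 a genotype, bounds the precision, and a two-sided exact permutation test of a single gene could not go below p = 0.10.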

Additional observations from a re-analysis of the deposited data

How the results depend on the processing

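Bcl2, Bcl2l1 and Bcl2l11 kept their direction and stayed past the threshold under all 14 alternatives, with adjusted p of 1.6e-06 to 0.0046, 1.5e-05 to 0.0022 and 5.5e-06 to 0.0062 (limma or one-way ANOVA). With one-way ANOVA, Mcl1 (0.27, adjusted p = 0.142), Bak1 (0.50, adjusted p = 0.0751) and Bbc3 (0.38, adjusted p = 0.0526) did not pass, so that 0 members were called higher (2 at an unadjusted p under 0.05). ANOVA here uses only a gene's own variance. Leaving out each array gave 0.21 to 0.34 for Mcl1, -0.0298 to 0.106 for Pmaip1 and -0.0753 to 0.0946 for Bad, and 2 to 3 members called higher. Pmaip1 changed sign without KO replicate 2 (-0.0298), and Bad without KO replicate 2 (-0.0753), WT replicate 1 (-0.0146) or WT replicate 2 (-0.0145). With a fold-change over 1.5 or over 2, 0 members were called higher, and over 2, 1 lower, with 422 genes higher and 634 lower among all genes.

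The replicate numbers did not pair the arrays: deviations of same-numbered KO and WT arrays correlated at -0.293, -0.239 and 0.08. Those of KO and WT arrays with unlike numbers correlated at -0.165 to 0.32. The highest were KO replicate 2 with WT replicate 1 (0.32) and KO replicate 1 with WT replicate 2 (0.229). A block for the number does not cover such pairs, and their cause was not tested. With the number as a block, Mcl1 was at 0.27 (limma adjusted p = 0.0881), the higher genes of the apoptosome list and the lower ones of the turnover list were 0 (3 and 1 at an unadjusted p under 0.05), and no other member's call changed.

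With quantile normalization, 5 genes of the apoptosome list and 1 of the death receptor arm were higher, and with median centring 2 of the death receptor arm were higher and 0 of the turnover list lower (1 at an unadjusted p under 0.05, limma). Leaving out each array gave 0 to 4 higher for the apoptosome list, 0 to 1 higher for the death receptor arm, 2 to 4 higher and 0 to 1 lower for turnover, 0 to 2 lower for the other BCL2 family genes and 2 to 3 lower for the partners. The cause was not tested. Bbc3 and Pmaip1, of low mean signal, were left out by the filter.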

Other observations

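Of the proliferation markers, 8 of 9 were measured, of which 1 was higher, 1 lower and 6 did not pass (25% called, against 33.4% of all genes). Mcm5, a subunit of the replicative helicase, averaged 10.47 in KO cells and 9.81 in WT cells, a log2 fold change of 0.66 (limma adjusted p = 3.3e-05). Pcna, the replication clamp, averaged 11.24 in KO cells and 11.57 in WT cells, a log2 fold change of -0.33 (limma adjusted p = 0.0014). Mki67 was at 0.07 (limma adjusted p = 0.43) and Top2a at 0.01 (limma adjusted p = 0.95).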
